A study of Mus musculus with 10 samples.

Results

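The arrays carried 73 names of ion channel genes on 105 spots, out of 15188 distinct names on the array and 22818 spots that were not controls. A name counted as an ion channel where it held the words potassium channel, sodium channel, calcium channel, chloride channel, transient receptor potential or cyclic nucleotide-gated, with other words allowed between potassium and channel. Sorted by ion, 31 names were potassium channels, 16 calcium channels, 10 chloride channels and 7 sodium channels, 6 belonged to the transient receptor potential (TRP) family and 3 to the cyclic nucleotide-gated HCN channels. The files gave descriptive names and no symbols, so symbols were assigned by hand to 62 of the 73 names, and all 62 were found among RefSeq mouse genes. Another 9 names described expressed sequence tags (ESTs) or clones only by their similarity to a channel, and they are called by that similarity here. The last 2 names belong to a chloride channel family renumbered since and got no symbol.

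The tissue was the paraventricular nucleus (PVN) of the mouse hypothalamus, punched with a 1 mm corer from 6 pups taken away from their mothers for 24 h and from 6 pups left with them. Both groups were otherwise described alike, and the sources used here gave no strain, age or sex. Punches of 2 animals were joined, the 3 resulting RNA samples of each group were amplified, and these were merged into a single RNA pool per condition. Both pools were hybridised to each of 10 arrays. Cy5 marked the separated pool on 5 of them (the Cy5 arrays) and Cy3 marked it on the other 5 (the Cy3 arrays), and these 2 dye orientations were scanned on different days. Each condition was therefore 1 sample, the arrays were technical repeats, and no test of separation was possible. Every SD below is taken over all 10 arrays, so it measures array error and any gap between the dye orientations, not variation between animals. A punch holds several cell types, so fewer cells of a type and less RNA per cell cannot be told apart.

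Ion channels are membrane proteins that let chosen ions through when voltage, a ligand, cell volume or temperature changes. Sodium and calcium channels drive action potentials and transmitter release, potassium channels end them and set the resting potential, and chloride channels regulate volume, acidification of vesicles and inhibition. In the PVN such channels shape the firing of the neurons that release corticotropin-releasing hormone, vasopressin and oxytocin, while glial potassium channels clear potassium around them.

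No ion channel name differed between the pools by the rule used here, which asked for a change of at least 1.5-fold, 0.58 on the log2 scale, with the same sign on all 10 arrays. Values are log2 ratios of the separated over the non-separated pool, each name read from its brightest spot and averaged over both dye orientations. The dye of each pool was taken from the labels, against which the authors' deposited log2 columns run the other way round, and every sign would turn if the array titles named the Cy5 pool. None of the 73 was called higher, against 0.0658% of all names, and none was called lower, against 0.191%, so the absence of calls was close to the background. The median over the 73 names was -0.02, beside 0.01 over all names, and the values ran from -0.41 to 0.49. Of the 73, 35 lay above 0 and 38 below.

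By ion, the medians were -0.05 for calcium, -0.02 for chloride, 0.01 for potassium, 0.03 for sodium, -0.02 for TRP and 0.01 for HCN channels. These differ by less than the spread over arrays: the median of the 31 potassium names, the largest class, already ranged from -0.07 to 0.29 from array to array. For calcium names the array medians ranged from -0.29 to 0.17 and for sodium names from -0.43 to 0.32. No ion class held the same sign of its median on all arrays.

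**Figure D1:**
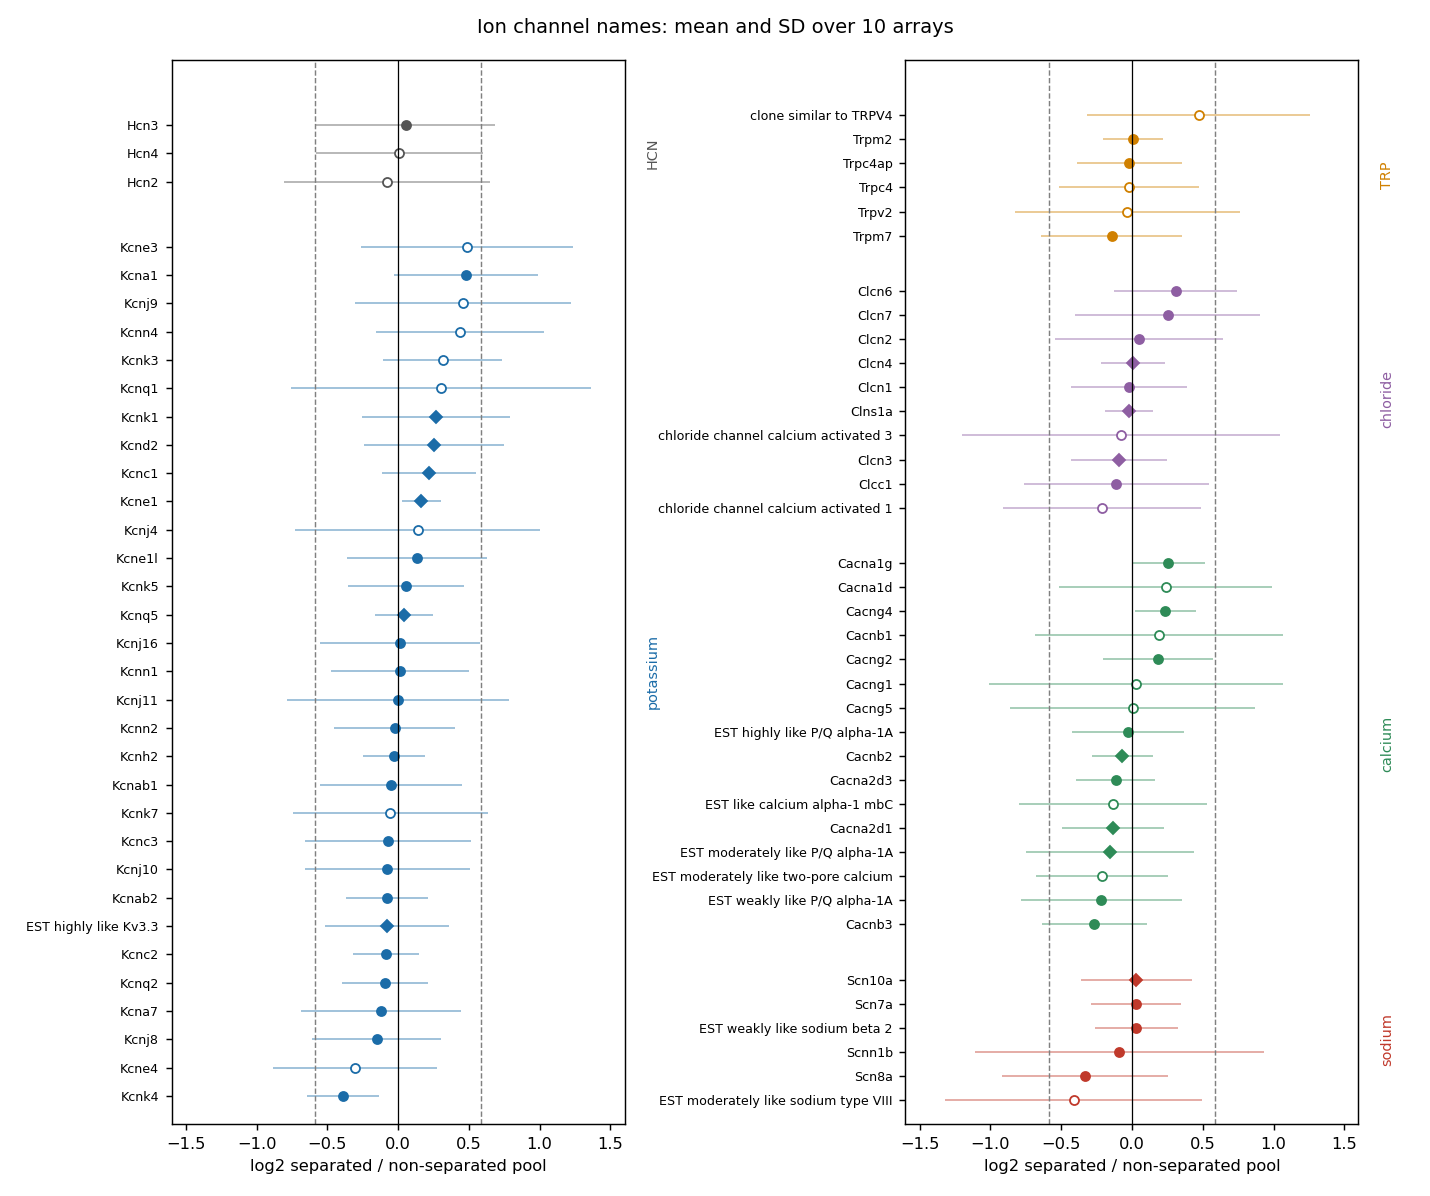
Mean log2 ratio of the separated over the non-separated pool (x axis) for 72 of the 73 ion channel names, grouped by ion, with bars for the SD over 10 arrays and dashed lines at 1.5-fold. Filled symbols are the 50 names shown that lay above the empty spots outside the block corners, diamonds the 13 above all empty spots, and open circles the 22 above neither limit. No mean reaches a dashed line, and the means run from -0.41 to 0.49.

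How far a ratio can be read depended on the brightness of its spot. The median intensity of spots that were not controls lay between 286 and 529 for Cy5 and between 436 and 1011 for Cy3, and the median log2 ratio of Cy5 over Cy3 before normalization ranged from -1.31 to 0.32. Of the 1170 spots named empty, 48 lay at row 1, column 21 of each of the 48 blocks and were bright, with array medians of 14820 to 32319 in Cy5 against 54.7 to 84.6 for the other empty spots. With all empty spots as reference, their 95th percentile was passed in at least 8 of 10 arrays, in the channel of at least 1 pool, by 13 channel names. Without the corner spots, a reference chosen after the intensities were seen, 51 of the 73 passed. The other 22 names were not well above background by either reference, and their ratios are given only for completeness. Calls were scarce among brighter names too: 0.458% of the 1965 names above all empty spots and 0.287% of the 11158 above the empty spots outside the corners were called in either direction, and none of the 13 or 51 channels.

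Among potassium channels, the two-pore family carries the leak currents that hold neurons at rest. Kcnk4 encodes TRAAK, a two-pore channel opened by membrane stretch and by arachidonic acid, and it was the only ion channel name with one sign on every array. On the 5 Cy5 arrays, the log2 ratios of Kcnk4 were -0.40, -0.48, -0.15, -0.29 and -0.31, and on the 5 Cy3 arrays they were -0.38, -0.15, -0.75, -0.88 and -0.12. All 10 values lay below 0, and those of both orientations overlapped. The mean was -0.39 ± 0.26 (SD, n = 10 arrays), which is 1.31-fold lower in the separated pool and short of the 1.5-fold limit. The orientation means were -0.33 and -0.46.

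Over all names, 1.05% lay below 0 on every array and 0.461% lay above 0 on every array, so 1 such name among 73 is near the background. At a lower size limit of 0.32 on the log2 scale, Kcnk4 alone of the channels was called lower, where 0.744% of all names were, and no channel was called higher, where 0.316% of all names were. Kcnk4 had 1 spot, which passed the limit outside the corners in both pools on 10 of 10 arrays. In the authors' deposited table, turned to the same direction, its mean was -0.28 with 9 of 10 arrays below 0.

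Kcnk1, which encodes the weakly conducting two-pore channel TWIK-1, was the brightest of its family. On the Cy5 arrays its log2 ratios were 0.65, 0.60, 0.88, 0.76 and 0.56, and on the Cy3 arrays they were -0.12, -0.36, -0.57, 0.48 and -0.20. The 2 orientations did not overlap, all of the first lying above all of the second. The mean was 0.27 ± 0.52. Its second spot, also above the limit outside the corners on 10 of 10 arrays in both pools, gave 0.01 ± 0.51, with orientation means of -0.21 and 0.22, the reverse of the first. The other two-pore names, Kcnk3, Kcnk5 and Kcnk7, lay between -0.06 and 0.31, and of these only Kcnk5 passed the limit outside the corners. Kcnk3 encodes the acid-sensitive channel TASK-1, with 0.31 ± 0.42.

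The 11 pore-forming (alpha) subunits of voltage-gated potassium channels had a median of -0.03 and ran from -0.12 to 0.48, with 10 of them above the limit outside the corners. The 2 brightest were Kcnq5, a subunit of the slow M-current that restrains repetitive firing, at 0.04 ± 0.21, and Kcnd2, which encodes Kv4.2 of the fast A-type current, at 0.26 ± 0.50. Kcnd2 gave -0.10, -0.11, 0.14, -0.57 and -0.20 on the Cy5 arrays, and 0.58, 0.91, 0.44, 0.63 and 0.83 on the Cy3 arrays. As for Kcnk1, the orientations did not overlap, but here the Cy3 arrays were the higher ones. Kcnc1, which encodes the fast delayed rectifier Kv3.1, had 0.22 ± 0.33, and the EST highly similar to its relative Kv3.3 had -0.08 ± 0.44. Kcna1, which encodes the low-threshold channel Kv1.1, had the highest value of this group, 0.48 ± 0.51, with 8 of 10 arrays above 0. That spot passed the limit outside the corners only through the separated pool, where it was higher, on 10 arrays against 5. The second Kcna1 spot, which passed that limit only through the non-separated pool (8 arrays against 6), gave 0.01 ± 0.86.

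Auxiliary subunits change the gating and trafficking of the pore-forming ones. Kcne1, a single-span partner of the Kcnq1 channel, was the brightest potassium channel name and the most precise of all 73. Its log2 ratios were 0.07, 0.23, 0.35, 0.26 and 0.17 on the Cy5 arrays, and 0.25, -0.07, 0.20, 0.24 and -0.06 on the Cy3 arrays. The mean was 0.16 ± 0.14, or 1.12-fold, with 8 of 10 arrays above 0 and overlapping orientations. Kcne3, a relative of Kcne1, had the highest value of any channel name and was the only one within 0.1 of the size limit. It gave 0.69, -0.18, 0.66, 0.97 and -0.95 on the Cy5 arrays, and 1.73, 0.64, 0.91, -0.18 and 0.57 on the Cy3 arrays. The mean of 0.49 ± 0.75 was smaller than its SD, 3 of 10 arrays lay below 0, and the spot was not well above background. The second brightest auxiliary name, Kcne1l, had 0.13 ± 0.49, and the cytoplasmic beta subunits Kcnab1 and Kcnab2 had -0.05 ± 0.50 and -0.08 ± 0.29.

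Inwardly rectifying channels pass potassium most readily near rest. Kcnj10, which encodes Kir4.1, the main potassium channel of astrocytes, had -0.08 ± 0.58 and a Cy5 orientation mean of -0.53 against 0.38 in the other. Kcnj8, a pore subunit of ATP-sensitive channels found in vessel walls, had -0.15 ± 0.45. The 6 inward rectifiers ran from -0.15 to 0.46, with Kcnj9, a subunit of G protein-gated channels, at the top with 0.46 ± 0.76 on a spot not above the limit outside the corners. Of the calcium-activated channels, which produce the pause after an action potential in many neurons, Kcnn2 had -0.02 ± 0.43 and Kcnn1 had 0.01 ± 0.49. Kcnn4, the intermediate-conductance member known from blood cells and microglia, had 0.44 ± 0.59 and was not above that limit. Of the microglia markers on the array, 6 of 7 also lay above 0, and their part in this value was not tested.

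**Figure D2:**
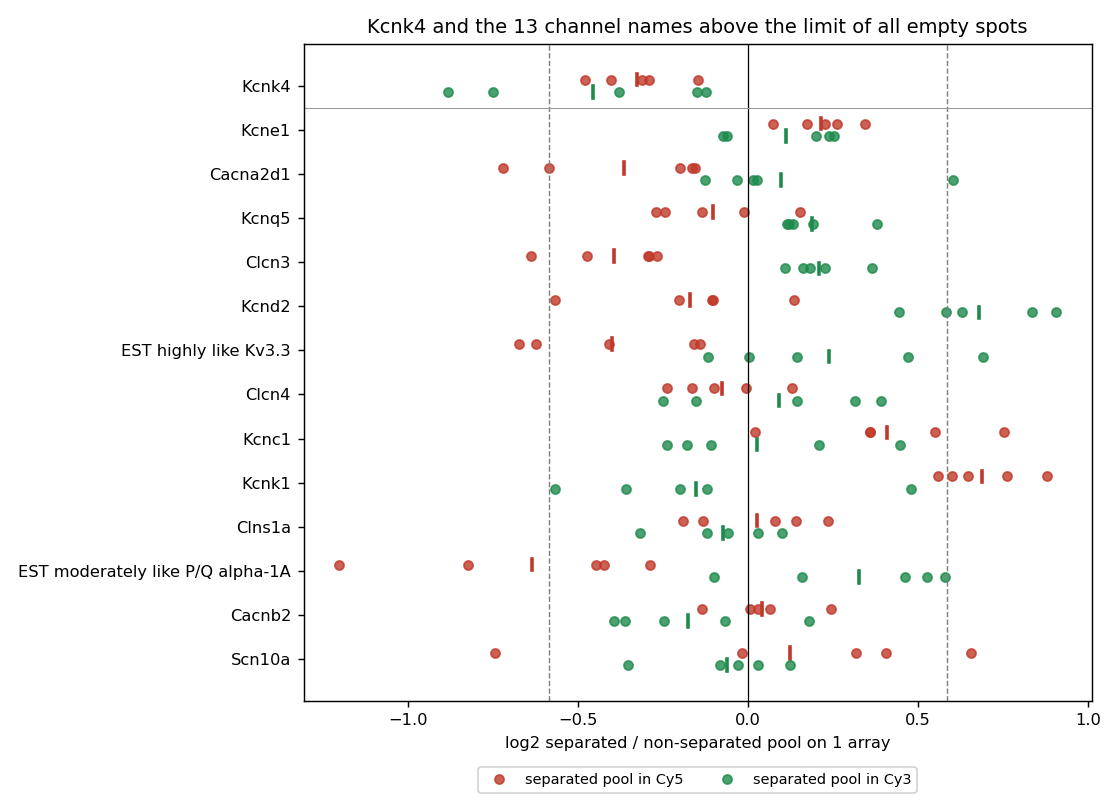
Log2 ratio of the separated over the non-separated pool on each of 10 arrays (x axis) for Kcnk4 and for the 13 ion channel names above all empty spots, ordered by brightness. Points are arrays, coloured by dye orientation, short vertical bars are orientation means and dashed lines mark 1.5-fold. Kcnk4 lies below 0 on all arrays, whereas Clcn3, Kcnd2, Kcnk1, Cacna2d1, the Kv3.3-like EST and the P/Q-like EST fall into separate ranges by orientation. Over all names of any brightness 11.1% do so, and the share among names above all empty spots was not taken.

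Voltage-gated sodium channels start the action potential. Scn10a, an alpha subunit known mainly from sensory neurons, was the only sodium channel name above all empty spots, on 8 of 10 arrays in the separated pool. Its spot passed the lower limit outside the corners on the same 8 arrays only. The other channel names above all empty spots passed that limit on all 10. Scn10a gave -0.02, -0.74, 0.32, 0.41 and 0.66 on the Cy5 arrays, and -0.03, 0.12, -0.35, -0.08 and 0.03 on the Cy3 arrays. Of these values 5 were above 0, and the mean was 0.03 ± 0.39.

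The lowest sodium value, -0.41 ± 0.91, came from an EST moderately similar to the type VIII alpha subunit, on a spot not well above background. Its values were 0.28, -0.53, 0.53, 0.29 and 0.10 on the Cy5 arrays, and -2.13, -0.13, -0.54, -1.88 and -0.12 on the Cy3 arrays. All Cy3 values were negative, and 4 of the Cy5 values were positive.

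Scn8a itself, which encodes the Nav1.6 channel of axon initial segments, had 4 spots, all above the limit outside the corners. They gave -0.33 ± 0.59 (the brightest), -0.13 ± 0.45, 0.12 ± 0.64 and 0.31 ± 0.65, so the spots of one channel name lay on both sides of 0. Scnn1b, a subunit of the amiloride-sensitive epithelial sodium channel, had -0.09 ± 1.02, with orientation means of 0.57 and -0.75. An EST weakly similar to the beta 2 subunit had 0.03 ± 0.29.

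In voltage-gated calcium channels, an alpha 1 subunit forms the pore and alpha2/delta, beta and gamma subunits modify it. Cacna1g, which encodes the low-threshold T-type channel that supports burst firing, had the highest calcium value. Its log2 ratios were 0.03, -0.19, 0.42, 0.43 and 0.48 on the Cy5 arrays, and 0.49, 0.57, 0.00, 0.11 and 0.20 on the Cy3 arrays. It was above 0 on 9 of 10 arrays, with a mean of 0.25 ± 0.26, or 1.19-fold, and orientation means of 0.24 and 0.27. The 6 alpha 1 names ran from -0.22 to 0.25. The brightest of them, an EST moderately similar to the P/Q-type alpha-1A subunit, had -0.16 ± 0.60 from orientation means of -0.64 and 0.33.

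Cacna2d1, the alpha2/delta subunit bound by gabapentin, was the brightest calcium channel name. It gave -0.72, -0.20, -0.16, -0.59 and -0.17 on the Cy5 arrays, and 0.01, -0.13, 0.03, 0.60 and -0.03 on the Cy3 arrays. The orientations did not overlap. The mean was -0.13 ± 0.36, and its other, dimmer spot gave -0.14 ± 0.56. Its relative Cacna2d3 had -0.12 ± 0.28.

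Cacnb3, a beta subunit that brings the pore to the membrane, had the lowest calcium value. It gave -0.19, -0.44, -0.22, -0.15 and -0.50 on the Cy5 arrays, and -0.45, 0.15, 0.29, -0.10 and -1.04 on the Cy3 arrays. The mean was -0.27 ± 0.37, with 2 arrays above 0, and the other spots of the name gave 0.03 ± 0.44 and 0.16 ± 0.85. Cacnb2, a brighter beta subunit, had -0.07 ± 0.22. All 4 gamma subunit names lay at or above 0.00, led by Cacng4 with 0.24 ± 0.21 and Cacng2, also known as the AMPA receptor partner stargazin, with 0.18 ± 0.39. Of the gamma names, only Cacng4 and Cacng2 were above the limit outside the corners. The second Cacng4 spot, not above it, lay at -0.06.

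Chloride channels and exchangers of the CLC family serve the cell surface or intracellular vesicles. Clcn3, a chloride/proton exchanger of endosomes and synaptic vesicles, was the brightest chloride name. It gave -0.64, -0.29, -0.29, -0.27 and -0.47 on the Cy5 arrays, and 0.36, 0.18, 0.23, 0.11 and 0.16 on the Cy3 arrays. All 5 values of one orientation were below 0 and all 5 of the other above 0, and the mean was -0.09 ± 0.34. No other channel name split in this way, against 3.96% of all names.

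Clcn6, a late endosomal exchanger of neurons, had the highest chloride value. It gave 0.25, 0.19, 1.00, 0.47 and 0.62 on the Cy5 arrays, and -0.17, 0.90, 0.02, 0.12 and -0.30 on the Cy3 arrays. The mean was 0.31 ± 0.43, with 8 of 10 arrays above 0. The lowest value, -0.21 ± 0.70, belonged to the name chloride channel calcium activated 1, whose spot was not well above background. It gave -0.25, -0.45, -0.48, -0.74 and 0.56 on the Cy5 arrays, and -1.12, 0.62, 0.27, -1.17 and 0.65 on the Cy3 arrays. Clcn4, another vesicular exchanger, had 0.01 ± 0.23 and Clns1a, a regulator of volume-sensitive chloride currents, -0.02 ± 0.17. Clcc1, a chloride channel of the endoplasmic reticulum, had -0.11 ± 0.65, and the name chloride channel calcium activated 3 had -0.08 ± 1.12.

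TRP channels are mostly calcium-permeable cation channels that sense temperature, stretch, lipids or oxidants. The highest value was that of a clone similar to TRPV4, the osmosensitive member, at 0.47 ± 0.79 on a spot not well above background. It gave 1.02, 1.32, -0.48, -0.09 and 0.14 on the Cy5 arrays, and 0.51, 1.99, 0.29, 0.50 and -0.47 on the Cy3 arrays. The values crossed 0 in both orientations. Trpm7, a channel fused to a kinase, had the lowest, -0.14 ± 0.50, from -0.14, -0.75, -1.14, 0.14 and 0.38 on the Cy5 arrays and -0.06, -0.49, 0.26, 0.19 and 0.18 on the Cy3 arrays. Trpm2, an oxidant-sensitive channel and the brightest TRP name, had 0.00 ± 0.21. Trpc4ap, a protein that binds Trpc4, had -0.02 ± 0.37.

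HCN channels open on hyperpolarisation and pace rhythmic firing. Hcn3 had 0.05 ± 0.63, from 1.15, -0.27, -0.61, -0.21 and -0.06 on the Cy5 arrays and 0.65, 0.76, 0.06, -0.88 and -0.06 on the Cy3 arrays. Hcn2 had -0.08 ± 0.73 on a spot not well above background, from 0.25, -0.23, -0.10, 1.07 and 0.31 on the Cy5 arrays and -0.05, 0.09, -0.82, -1.64 and 0.33 on the Cy3 arrays. Hcn4 had 0.01 ± 0.59. For all 3 names the arrays lay on both sides of 0.

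Values differed more between dye orientations than between pools. The median size of a channel's ratio was 0.11. The median size of its departure with orientation, taken as 0.5 of the difference between the orientation means, was 0.15. Over all names the matching values were 0.14 and 0.17. Dye and day of scanning cannot be told apart here. The orientation means had opposite signs for 45 of the 73 channel names, or 61.6%, and for 56.8% of all names. The values of the 2 orientations did not overlap for 8 channel names, where 11.1% of all names did not. The 8 were Kcnk1, Kcnd2, Kcna7, the Kv3.3-like EST, Clcn3, Cacna2d1, the brightest P/Q-like EST and Scnn1b. Across the 73 names, which are not independent replicates, Pearson's r between the orientation means was -0.14, and over all names it was -0.16. Between arrays of the same orientation the median r across channel names was 0.18 for the Cy5 arrays and 0.12 for the Cy3 arrays.

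Read from 1 orientation only, several channels would have passed the call rule. On the Cy5 arrays, Kcnk1 at 0.69 and Kcnn4 at 0.67 were called higher, where 4.63% of all names were. The brightest P/Q-like EST was called lower there at -0.64, where 3.19% of all names were. On the Cy3 arrays, Kcnd2 was called higher at 0.68 (1.47% of all names) and the type VIII-like EST lower at -0.96 (1.36% of all names). None of these 5 was called in the other orientation, and the means of 4 of them there had the opposite sign. Kcnn4 had 0.21 in the other orientation.

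**Figure D3:**
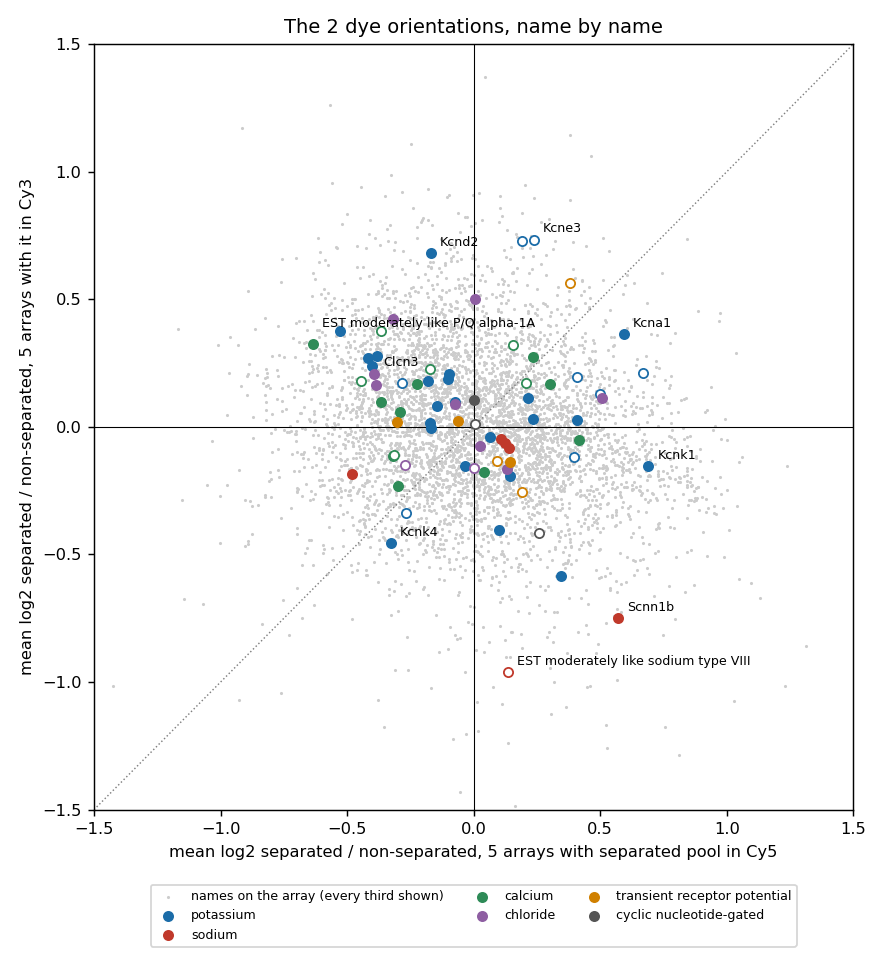
Mean log2 ratio of the separated over the non-separated pool on the 5 Cy5 arrays (x axis) against the 5 Cy3 arrays (y axis), for 72 of the 73 ion channel names (coloured by ion, filled above the limit outside the corners) over a thinned set of all names in grey. The dotted line marks equal values. Of the channel names, 45 lie in the quadrants of opposite sign, and Kcnk4 lies near the line at -0.33 and -0.46.

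Where a name had several spots, these gave a second reading under that name, though spots sharing a name need not carry the same sequence. Of the 25 channel names with 2 to 4 spots, 12 had spot means on both sides of 0, or 48%. Over the whole array this held for 54.2% of the 3956 names with several spots. Among the 12, only Cacnb2, Cacnb3 and Scn8a had more than 1 spot above the limit outside the corners. For the rest, at least 1 of the spots compared was not well above background. The median distance between the lowest and highest spot of a channel name was 0.26, more than the typical size of a channel's ratio, whose median was 0.11. The distance ranged from 0.00 for Cacna2d1 to 0.64 for Scn8a. Clcn7, a lysosomal exchanger, had 0.25 on its brightest spot and -0.28 on both of the others, which were not above the limit outside the corners.

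**Figure D4:**
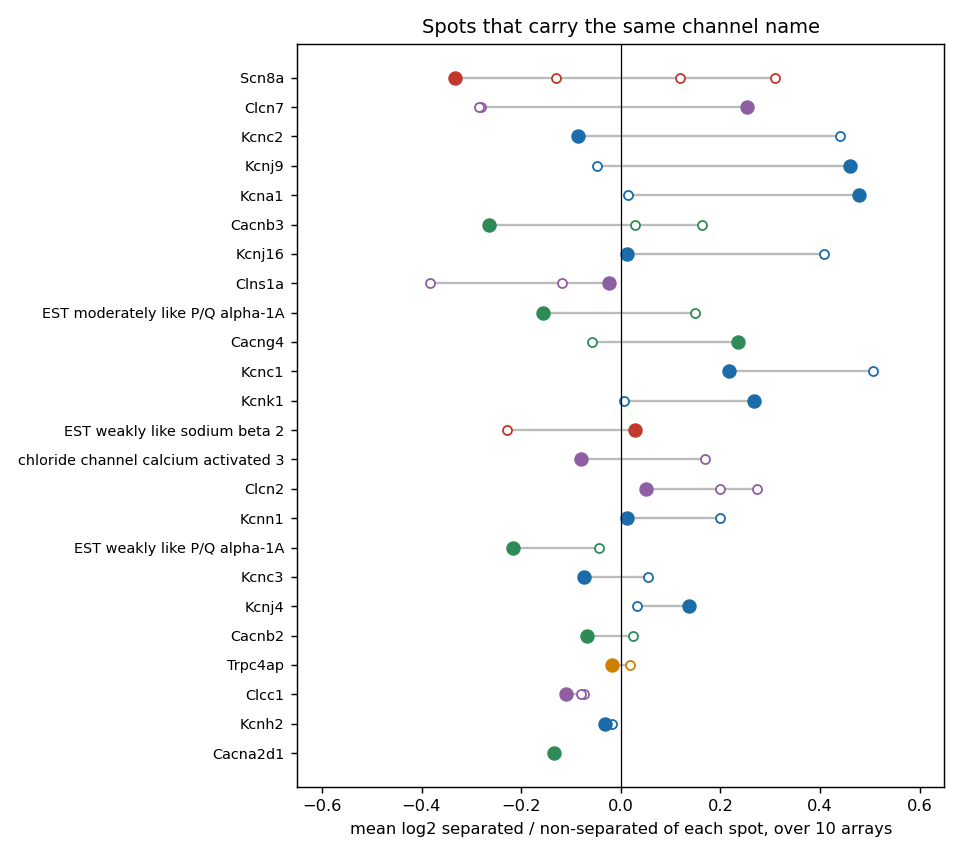
Mean log2 ratio over 10 arrays (x axis) of every spot for 24 of the 25 ion channel names that had more than 1, coloured by ion as in the plot of orientations. Filled points are the brightest spot, open points the others, and grey lines span each name. For 12 names the line crosses 0, and the widest, Scn8a, spans 0.64.

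The spread over arrays fell with brightness. The median SD over arrays was 0.75 for the 22 channel names not above the limit outside the corners, 0.41 for the 51 above it, and 0.34 for the 13 above all empty spots. Over all names the matching values were 0.72, 0.43 and 0.31. The mean exceeded the SD in size for 3 of the 73 channel names, Kcnk4, Kcne1 and Cacng4, or 4.11%, beside 4.60% of all names.

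**Figure D5:**
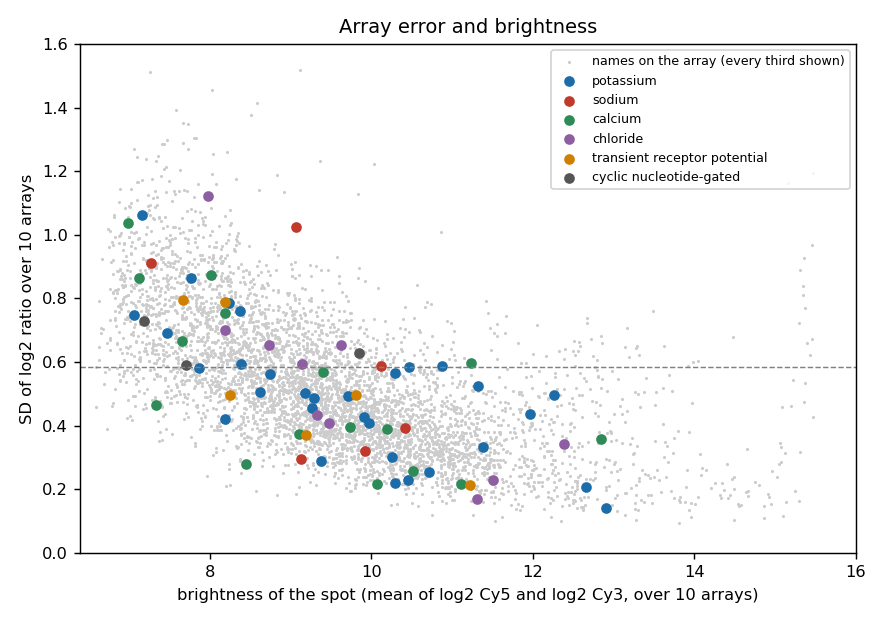
SD over 10 arrays of the log2 ratio (y axis) against the brightness of the spot on the log2 scale (x axis) for 72 of the 73 ion channel names, coloured by ion, over a thinned set of all names in grey. The dashed line marks the size of a 1.5-fold change. The channel names follow the cloud, with a median SD of 0.75 among the dimmest 22 and 0.34 among the 13 brightest.

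Channels and channel partners outside the name rule were read in the same way. Of 44 such names, 15 lay above 0, or 34.1% beside 51.4% of all names, and 29 lay below. The median was -0.07, and none was called. Calmodulin 2, one of the genes for the calcium sensor that several of these channels carry, was the only one with one sign on every array, at -0.42 ± 0.22. Calmodulin 1 and calmodulin 3, whose genes encode the same protein, had -0.13 ± 0.39 and 0.06 ± 0.44. The neuronal acid-sensing channels named amiloride-sensitive cation channel 1 and 2 had -0.32 ± 0.38 and -0.20 ± 0.17, and the inositol trisphosphate receptor 1 of calcium stores had -0.13 ± 0.33. Aquaporin 4, the water channel of astrocyte endfeet, had -0.10 ± 0.60.

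Markers of the cell types in the punch were read for comparison. Of the astrocyte list, 10 of 12 names lay below 0, with array medians of -0.66 to -0.10, and 2 were called lower, beside 0.191% of all names. These were Gjb6, a gap junction protein, at -1.22 ± 0.40 and the glycolytic enzyme Aldoc at -0.73 ± 0.35. Gja1, also a gap junction protein, Ndrg2 and Sparcl1 were not called but lay below 0 on every array, as both called names did. They had -0.51 ± 0.22, -0.58 ± 0.34 and -0.31 ± 0.19. Over all names, 1.05% lay below 0 on every array. Fabp7, a fatty acid binding protein, lay above 0 on all 10 arrays, at 0.19 ± 0.15, where 0.461% of all names did. All 12 names passed the limit outside the corners.

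None of the other lists held a called name. Of the 11 neuron markers found, 9 lay below 0, the median was -0.05 with array medians of -0.31 to 0.09, and the enolase Eno2 was below 0 on every array at -0.37 ± 0.20. The 8 oligodendrocyte markers lay 4 above and 4 below 0 with a median of 0.01, and the myelin protein Mbp was below 0 on every array at -0.43 ± 0.27. Of 7 microglia markers, 6 lay above 0 with a median of 0.20 and array medians above 0 on 9 of 10 arrays, led by the integrin Itgam at 0.49 ± 0.51, and 4 of them passed the limit outside the corners. The 7 vascular markers had a median of -0.08 and the 3 choroid plexus markers found had one of 0.33, with array medians from -0.55 to 0.21 and from -0.34 to 0.54.

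Of the neuropeptides that define the PVN, Avp had -0.53 ± 0.49, Oxt -0.31 ± 0.92 and Trh -0.13 ± 0.60, all above the limit outside the corners. Crh, at 0.17 ± 0.54, was not above it. The median of these 4 names was -0.22. The part of cell makeup in the values of Kcnk4 or any other channel was not tested.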

How the data were processed

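The deposited intensity of each of 24192 spots per array was linear and, per the file headers, had no background subtracted. The other columns, local background and its spread, were deposited on the same scale, and background was 0 for 91.6% to 100% of spots. The authors' value table held log2 ratios, with normalization not given in the sources used here, and served only as an alternative. The labels gave the dyes. Under them the deposited log2 columns ran as non-separated over separated. If the array titles named the Cy5 pool instead, every direction would be reversed.

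Intensities were background-corrected with normexp (offset 50) and normalized within each array by loess, with control spots given no weight, using limma 3.58.1 (R 4.3.3). The procedure was run on simulated arrays whose changes were larger than 1.5-fold, sat on brighter spots and carried no dye effect particular to single names. That run does not show how the call rule does on smaller changes, dim spots or names that differ between dye orientations. The value of a name was the average of the orientation means of its brightest spot. With 1 pool per condition no p-value was computed.

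Members and lists were chosen with earlier results of these data known. Given in full were names called, names of one sign on all arrays and, per ion, the highest, the lowest and the brightest name above all empty spots. Kcnk1, Kcnd2 and other added examples were chosen after their values were seen. Partner names matched only by the word ankyrin or SPRY (15 names) were left out, and 3 of 55 markers were not matched. RefSeq names came from GRCm38.p6. The precision is limited by the number of arrays. The values of 1 sodium channel name, which entered all counts and medians, are not reported here and not plotted.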

Additional observations from a re-analysis of the deposited data

Results flagged for a closer look

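In 64 groups of 5 arrays (a part of the described channels, and the ion classes, in each dye orientation), 4 held an array far from the other 4 of its group. Chance gives about 1 in 20 such groups, or 3.2 here. Cacna2d1 stood at 0.60 on the fourth Cy3 array, the others lying between -0.13 and 0.03. The calcium class median was -0.14 on the first array of that orientation, against 0.09 to 0.17 on the others. Among the Cy5 arrays, the potassium class median was 0.14 on the fourth array, against -0.01 to 0.02, and the sodium class median was -0.43 on the second array, against 0.16 to 0.32.

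Clcn3 was below 0 on all 5 arrays of one dye orientation and above 0 on all 5 of the other, a difference of -0.60 between the orientation means. That difference was not tested.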

How the results depend on the processing

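No channel name was called in either direction with no background correction, print-tip loess, median centring, scaling between arrays, the authors' deposited log2 values (57 of the 73 names), the median over all spots, any 1 array left out, or both arrays numbered 3 left out. The same held among names above each limit of empty spots. The median over channel names stayed between -0.03 and 0.00 when 1 array was left out. On the 5 Cy5 arrays alone, 2 names were called higher and 1 lower. On the 5 Cy3 arrays alone, 1 was called higher and 1 lower, and the median was 0.082. At the lower size limit of 0.32 (log2) 1 name, Kcnk4, was called lower. Kcnk4 lost its single sign with print-tip loess (-0.33, 9 of 10 arrays below 0) and in the authors' deposited values (-0.28, 9 of 10). All 300 values of the 16 names chosen by rule, under the alternatives, moved by less than 1 SD over arrays. With a single dye orientation or 1 array left out this outcome was fixed, because that SD is taken over the same arrays. It therefore does not show stability there. The type VIII-like EST, at -0.41 over both orientations, was 0.14 on the Cy5 arrays and -0.96 on the Cy3 arrays. The SD over arrays is also wide. Of the 16 names, 7 changed sign under at least 1 alternative, 4 of them only when a single dye orientation was used (Cacna2d1, Clcn3, Trpm7 and the type VIII-like EST). The others were Hcn2, Hcn3 and Scn10a. Leaving out 1 array moved 9 of the 16 by over 1.5 times. Without the fifth Cy3 array Cacnb3 was -0.16, and without the second Cy3 array the clone similar to TRPV4 was 0.29. Without the fourth Cy3 array chloride channel calcium activated 1 was -0.08, and without the first the type VIII-like EST was -0.27. With 1 array left out Trpm7 ranged from -0.23 to -0.04, Hcn2 from -0.18 to 0.07, Hcn3 from -0.09 to 0.18 and Scn10a from -0.04 to 0.14. No paired analysis was possible because each result comes from no test and the arrays repeat 1 pair of pools. For the 22 names not well above background, the median SD over arrays, 0.75, exceeded the size of a 1.5-fold change.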
